A study of Mus musculus with 12 samples.

Results

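The type II classical cadherins that spinal motor neurons use to sort into motor pools were followed here in sorted motor neurons of the mouse embryo. The genes were the 10 rows of the deposited table, of 30740 in all, named Cdh6, Cdh7, Cdh8, Cdh9, Cdh10, Cdh11, Cdh12, Cdh18, Cdh20 and Cdh22, and each was read in all 12 libraries. Type II cadherins are single-pass membrane proteins that bind cadherins on neighbouring cells in a calcium-dependent way and are tied to actin inside the cell through catenins. In the ventral horn, each motor pool carries its own combination of them, and these combinations are known to help motor neurons of one pool cluster together. Each library averages over all pools in the sorted cells, so the levels below are not those of any 1 pool.

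All embryos were of strain CB6F1/J at E12.5 (embryonic days) and carried Hb9:GFP, in which the promoter of the motor neuron gene Mnx1 (Hb9) drives a green fluorescent protein. Ventral spinal cord was taken either from embryos labelled as Arhgap35 knockout, whose product p190 is a GTPase-activating protein, or from littermates that were wild-type or p190+/-, so the control group may include heterozygotes. Tissue was pooled, dissociated with papain and sorted by GFP, which gave 5 libraries per genotype of GFP-positive cells and 1 library per genotype of GFP-negative cells. By label these last are motor neurons too, but the summed motor neuron markers stood at 61.0 and 54.9 TPM (a level that allows for transcript length) there, against 1190 to 1520 TPM in the GFP-positive libraries. The labels name no separate litters or animals, so a p-value reflects only how much these libraries vary, which may be technical.

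Library totals ran from 23.7 to 33.8 M estimated counts. Arhgap35 stood at 173 ± 25.7 CPM (counts relative to the library total, scaled between libraries) in control and 97.2 ± 8.04 CPM in knockout GFP-positive libraries (SD, n = 5 each), with no overlap between the groups. Its older symbol, Grlf1, has a row of its own. Control libraries held 48.6 ± 20.4 CPM of it and knockout libraries 6.22 ± 3.51 CPM (SD, n = 5 each), also without overlap, though edgeR did not call it (adjusted p = 0.9999). In knockout library 1 it is listed at 0. The tables do not place counts along the gene, so they do not show which part of the transcript remains in knockout cells. Libraries of the same replicate number deviated together. Control library 1 stood apart in its dorsal interneuron markers and in several cadherins. The members' counts of calls, genotype differences, spread and correlations are therefore also given without both libraries of number 1. The ventral interneuron sum of control library 1, 50.2 TPM, was close to the 46.7 TPM of control library 4.

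The 10 genes lie on 4 chromosomes in GRCm38 (GENCODE M21). Cdh6, Cdh9, Cdh10, Cdh12 and Cdh18 lie within 10.45 Mb of chromosome 15, between 13028701 and 23474418. Cdh20 and Cdh7 lie within 5.37 Mb on chromosome 1, Cdh8 and Cdh11 within 3.76 Mb on chromosome 8, and Cdh22 lies on chromosome 2. None lies on chromosome 7, which holds Arhgap35. The genes span from 123.3 kb for Cdh22 to 1140.3 kb for Cdh12. Between 0% and 4.79% of a member's transcript words of 31 bases also occur in another gene. The highest shares are those of Cdh9, 4.79%, where the words belong to the antisense model Gm49127 over its exons, and of Cdh11, 4.78%. The library kit keeps no strand, so reads from Cdh9 and from Gm49127 in that overlap cannot be told apart.

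RefSeq promoter windows (GRCm38.p6, 250 bases before to 50 after an annotated start) were found for 9 of the 10 genes, 11 windows in all. Shown here are those of Cdh6 and Cdh9, the genes with the widest difference between the sorts below, and that of Cdh22, the second most abundant. Cdh6 (chr15:13173626-13173925, minus strand) and Cdh9 (chr15:16728665-16728964, plus strand) shared the longest identical run among the 36 member pairs compared, 15 bases, set in capitals. The next longest run in another pair was 13 bases. In the Cdh22 window (chr2:165234688-165234987, minus strand) the capitals mark CG dinucleotides.
Cdh6: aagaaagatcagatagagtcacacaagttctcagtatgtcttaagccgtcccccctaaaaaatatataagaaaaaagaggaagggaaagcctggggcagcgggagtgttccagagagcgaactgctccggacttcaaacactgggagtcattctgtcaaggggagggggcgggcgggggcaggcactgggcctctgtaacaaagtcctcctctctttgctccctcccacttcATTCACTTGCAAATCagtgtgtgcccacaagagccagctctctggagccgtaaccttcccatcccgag
Cdh9: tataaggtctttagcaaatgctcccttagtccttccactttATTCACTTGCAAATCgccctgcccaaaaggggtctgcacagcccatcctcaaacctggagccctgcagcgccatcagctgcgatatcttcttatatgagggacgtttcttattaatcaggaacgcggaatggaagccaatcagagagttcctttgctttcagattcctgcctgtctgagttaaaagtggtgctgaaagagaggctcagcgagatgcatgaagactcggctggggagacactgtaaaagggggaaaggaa
Cdh22: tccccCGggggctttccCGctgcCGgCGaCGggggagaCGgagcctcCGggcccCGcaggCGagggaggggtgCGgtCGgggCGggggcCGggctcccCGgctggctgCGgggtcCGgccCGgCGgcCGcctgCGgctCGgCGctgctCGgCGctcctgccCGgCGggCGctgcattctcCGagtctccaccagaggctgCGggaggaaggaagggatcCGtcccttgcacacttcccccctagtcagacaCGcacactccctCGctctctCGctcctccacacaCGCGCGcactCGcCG

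The shared run occurred in 2 of 32851 windows, those of Cdh6 and Cdh9, and it begins 18 bases before the annotated start of Cdh6. In Cdh9 it begins 209 bases before the RefSeq start and 50 bases before the GENCODE start. The Cdh22 window is 76.3% G and C and holds 38 CG dinucleotides, at the 97.1 percentile of all windows for G and C, whose medians are 52.7% and 7. The homeodomain core TAATTA, searched on both strands, was in 5.29% of all windows and among the members in that of Cdh7. The E-box CAGCTG was in 16.3% of all windows and in those of Cdh9 and Cdh12. The ETS site CCGGAAG (8.86% of all windows) and the TATA box TATAAA (13.62%) were in none of the 11. These matches describe letters in the windows. The windows of Cdh12 and Cdh18 start 662.2 and 487.4 kb inside the GENCODE genes and so stand for inner starts.

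All 10 genes were expressed in the GFP-positive libraries, and Cdh6 led in each of them. Cdh6, known for its part in kidney development and in retinal wiring, read 66.9, 69.9, 74.5, 70.5 and 72.2 TPM in control libraries 1 to 5 and 74.9, 73.6, 80.2, 76.8 and 69.0 TPM in knockout libraries 1 to 5. The genotypes overlapped, and both GFP-negative libraries were far lower, at 6.60 (control) and 6.87 TPM (knockout). Cdh22, a brain and pituitary cadherin, came next with 40.6, 42.9, 45.5, 44.2 and 48.6 TPM in control and 43.8, 44.0, 41.0, 43.2 and 52.5 TPM in knockout GFP-positive libraries. Its GFP-negative levels were 11.0 and 9.97 TPM. Knockout library 5 was the highest for Cdh22, well above the other 9 GFP-positive libraries except control library 5.

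Cdh8, which directs bipolar cell axons in the retina, came after it at 33.9 ± 5.05 TPM in control and 37.0 ± 2.20 TPM in knockout (SD, n = 5 each). Cdh11, abundant in mesenchyme and bone-forming cells, followed with 29.8, 29.9, 27.2, 24.9 and 28.6 TPM in control and 32.3, 29.7, 30.7, 25.4 and 27.6 TPM in knockout libraries. Its GFP-negative levels, 26.4 and 25.2 TPM, lie inside the GFP-positive range, the one member of which this is true. Cdh7 stood at 27.3 ± 5.16 TPM in control and 28.7 ± 2.57 TPM in knockout, with 6.58 and 6.72 TPM in the GFP-negative libraries.

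Cdh10, known from retinal circuits with Cdh6, averaged 21.2 ± 2.64 TPM in control and 20.8 ± 2.60 TPM in knockout. Cdh9, a synaptic recognition cadherin of hippocampal and retinal neurons, read 14.8, 18.0, 22.7, 17.1 and 22.5 TPM in control and 19.1, 19.5, 18.9, 18.2 and 22.5 TPM in knockout libraries. Control library 1 was the lowest for Cdh9, and the GFP-negative libraries, at 1.13 and 0.634 TPM, were the lowest values of any member anywhere. Cdh20, described in chick as MN-cadherin for its motor neuron expression, read 9.93, 7.12, 10.4, 7.49 and 10.3 TPM in control and 10.2, 9.50, 11.4, 10.2 and 9.75 TPM in knockout libraries. Its controls split into a lower pair, libraries 2 and 4, and 3 others that overlapped the knockouts. Cdh12 (7.15 ± 0.809 and 7.51 ± 0.444 TPM in control and knockout) and Cdh18 (4.38 ± 0.726 and 4.95 ± 0.863 TPM), both brain cadherins, were the least abundant.

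The order of mean TPM was the same in both genotypes. In control libraries, Cdh6 and Cdh22, Cdh22 and Cdh8, Cdh9 and Cdh20, and Cdh12 and Cdh18 had separate ranges, while the other neighbours overlapped. In knockout libraries the overlapping neighbours were Cdh11 with Cdh7 and Cdh10 with Cdh9. In CPM, which is not per length, Cdh11 stood above Cdh8 and Cdh12 above Cdh20 in both genotypes. Cdh9 and Cdh10 were level in CPM, at 26.8 and 27.4 in control and 27.6 and 27.0 in knockout. In the GFP-negative libraries Cdh11 and Cdh8 led instead, and Cdh9 was last.

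**Figure D1:**
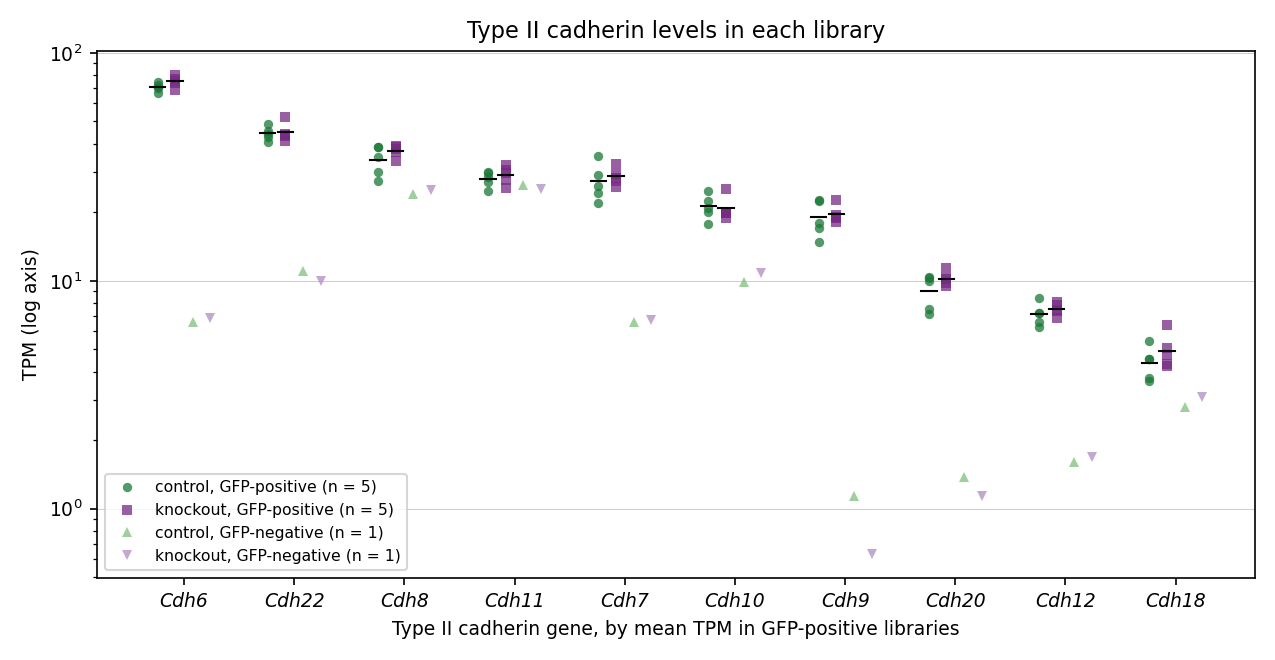
Deposited TPM (log axis) of each gene in each of the 12 libraries, ordered by mean level in GFP-positive cells, with a bar at the mean of each group of 5. Cdh11 is the gene whose GFP-negative points, 26.4 and 25.2 TPM, lie among its GFP-positive ones.

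The plot of levels by library also shows that the makeup of the family differed between the sorts. The 10 genes summed to 265 ± 17.1 TPM in control and 278 ± 5.61 TPM in knockout GFP-positive libraries (SD, n = 5 each), and to 91.3 and 91.1 TPM in the GFP-negative ones, a ratio of the sort means of 2.98. Cdh6 held 26.7 ± 0.90% of the control GFP-positive sum but 7.23% of the control GFP-negative sum. Cdh11 held 10.6 ± 1.19% and 28.9%, and Cdh8 12.8 ± 1.60% and 26.3%, in the same order.

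GFP-positive cells were compared with GFP-negative cells in all 12 libraries, with genotype as a covariate, by edgeR's quasi-likelihood test with Benjamini-Hochberg adjustment over 19763 genes. Of the 10 cadherins, 9 were higher in GFP-positive cells and 0 were lower, where 30.1% of all genes tested were higher, 31.8% were lower and 61.9% were called either way. The members' median log2 fold change was 2.10, against 0.02 over all genes. In 9 members all 10 GFP-positive libraries lay above both GFP-negative ones, which was so for 29.6% of all genes. Log2 changes above 2 were called for 6 members (4.45% of all genes) and changes above 3 for 2 members (1.74%).

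Cdh9 differed most, by 4.41 on the log2 scale (SE 0.25, 21.2-fold, edgeR adjusted p = 1.563e-08). Cdh6 followed at 3.40 (SE 0.07, 10.5-fold, edgeR adjusted p = 2.591e-12), with the smallest standard error of the members. Cdh20 rose by 2.90, Cdh7 by 2.17, Cdh12 by 2.13 and Cdh22 by 2.07 on the log2 scale. These 4 genes thus lay between 4.21-fold and 7.47-fold higher in the GFP-positive cells. Smaller steps were called for Cdh10 (1.01), Cdh18 (0.68, edgeR adjusted p = 0.00665) and Cdh8 (0.56, edgeR adjusted p = 0.0007005). Cdh11 was not called, at 0.12 (95% interval -0.06 to 0.30, edgeR adjusted p = 0.2434).

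A pair of these calls turned on the libraries used. With the replicate number as a block, Cdh11 was called at 0.22 on the log2 scale (edgeR adjusted p = 0.005362), as it was among the 4 libraries of number 1 alone, at 0.24. Without the knockout GFP-negative library, Cdh18 was not called, at 0.59 (edgeR adjusted p = 0.09304). Both GFP-negative libraries carry number 1, the only number that holds both sorts. The call of Cdh11 with the block and that among number 1 alone are therefore not separate observations. Without both GFP-positive libraries of number 1, 9 members were called, but the sorts then share no number and cannot be told apart from it. Each GFP-negative group is 1 library, so the spread behind these tests comes mostly from the GFP-positive libraries.

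The GFP-negative cells differed in makeup as well. All 8 of 8 progenitor and proliferation markers were lower in GFP-positive cells, by log2 changes from -5.03 (Hes5) to -1.33 (Vim). Their summed level was 1840 and 1950 TPM in the GFP-negative and 573 to 667 TPM in the GFP-positive libraries. Most of that sum was Vim, at 1311 TPM in the control GFP-negative library and a mean of 554 TPM in control GFP-positive libraries. Dorsal interneuron markers (6 of 6 lower) summed to 294 and 259 TPM in the GFP-negative and 2.32 to 41.1 TPM in the GFP-positive libraries. Ventral interneuron markers (6 of 8 lower) summed to 256 and 229 TPM against 4.96 to 50.2 TPM. Mesenchyme, meninges and pericyte markers, cells known for Cdh11, summed to 12.2 and 12.7 TPM in GFP-negative and 1.91 to 6.42 TPM in GFP-positive libraries. Of the tested markers, 4 of 6 endothelial, 2 of 6 neural crest and Schwann, 5 of 5 erythroid and 3 of 3 microglia markers were lower in GFP-positive cells, as were 5 of 7 of mesenchyme. Of 6 sensory neuron markers 2 were lower and 1 was higher, which was Isl1, a gene also on the motor neuron list. Of the motor neuron markers 8 of 8 were higher. Over all genes tested, 30.1% were higher and 31.8% lower. No list had a marker at 0 in all libraries of a group. The part of these cells in the cadherin differences was not tested. In bulk RNA, fewer cells of a type and less RNA per cell cannot be told apart.

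Knockout was compared with control within the 10 GFP-positive libraries (edgeR, 17487 genes), the question named by the series title. No member was called: 0 of 10 passed the adjusted threshold of 0.05, where 6 genes in all did (0.0343%), and 0 of 10 had an unadjusted p under 0.05 (2.14% of all genes). DESeq2 also called 0 of the 10. Knockout and control ranges overlapped for all 10 members, and 0.486% of all genes had separate ranges.

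The differences were small and mostly above 0. The log2 differences were 0.07 for Cdh6, 0.09 for Cdh7, 0.10 for Cdh8, 0.04 for Cdh9, -0.03 for Cdh10, 0.05 for Cdh11, 0.06 for Cdh12, 0.17 for Cdh18, 0.16 for Cdh20 and 0.01 for Cdh22. Each had an edgeR adjusted p of 0.9999. The median was 0.07, against 0.00 over all genes (-0.0016), and 9 of 10 were above 0, against 48.9% of all genes. The members share libraries, so these 10 signs are not independent of each other.

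The 95% intervals bound what these libraries could hold. That of Cdh6, the narrowest, ran from -0.03 to 0.17 on the log2 scale, and that of Cdh18, the least abundant, from -0.16 to 0.49. Over the 10 genes the intervals ran from -0.23 to 0.49, so a rise of more than 1.41-fold lies outside the interval of every member. These intervals come from the fit without replicate number as a block, so they take no account of the pairing by number. Within replicate numbers 1 to 5, knockout was above control at 10, 8, 6, 8 and 5 of the 10 genes. For Cdh18 the knockout excess was widest in number 1, by 0.58 on the log2 scale. Without both libraries of number 1, Cdh9 and Cdh22 turned to -0.03 and -0.02, Cdh7 and Cdh18 shrank to 0.01 and 0.05, and the other 6 lay between -0.04 and 0.20. Still 0 members were called.

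None of the 8 ventral interneuron markers was called between the genotypes. Their median log2 difference was -0.78, and their sums overlapped, at 4.96 to 50.2 TPM in control and 5.34 to 35.7 TPM in knockout libraries. Endothelial markers had a median of 0.81 over the 4 tested, with sums of 1.73 to 3.54 TPM in control and 1.87 to 8.74 TPM in knockout, the highest being knockout library 2. Motor neuron markers had a median of 0.04. The part of these cells in the members' differences was not tested.

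**Figure D2:**
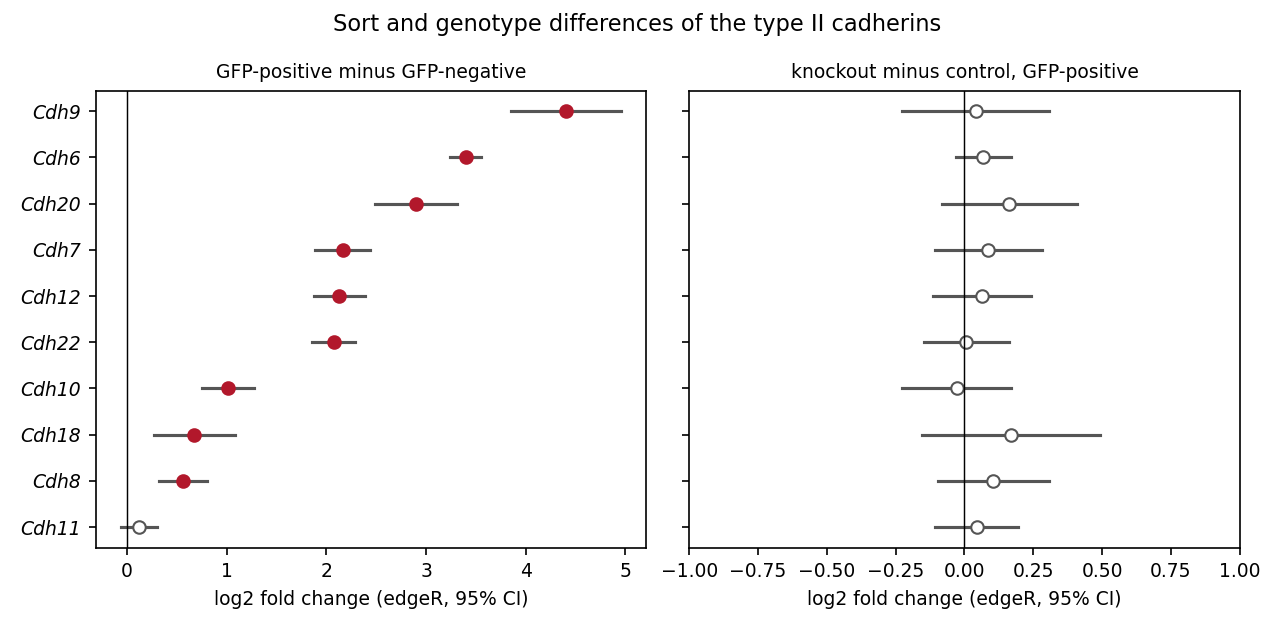
Log2 fold change with its 95% interval (edgeR) for each gene, between the sorts at left and between the genotypes in GFP-positive cells at right, on axes of different width; filled points have an adjusted p under 0.05. At left 9 of 10 points are filled, from 0.56 to 4.41, and at right none is.

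Whether the knockout difference itself differed between the sorts was tested in a fit with 4 group means, in which the 2 unreplicated GFP-negative groups borrow the spread of the others. No member was called (0 of 10, edgeR; 0.0253% of all genes were), none had an unadjusted p under 0.05 (1.78% of all genes), and DESeq2 called 0. Cdh9 had the widest difference, -0.87 on the log2 scale (95% interval -1.82 to 0.08, edgeR unadjusted p = 0.0687, adjusted p = 1). It rests on 47.8 and 25.0 estimated counts of Cdh9 in GFP-negative cells of control and knockout. Cdh20 came next at -0.42, and the other 8 lay between -0.17 and 0.21.

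Between libraries of one genotype the members all lay above the middle of genes of like abundance in their spread, given here as a description. The SD of log2 CPM after removing each genotype's mean was 0.08 for Cdh6, at the 60.6 percentile of 404 genes within 0.25 log2 CPM. For Cdh9 it was 0.21, at the 92.3 percentile of 1269 genes, the highest percentile of the members. Cdh8 (89.1) and Cdh7 (88.3) came next, and the remaining members lay between 61.7 and 85.9. Without both libraries of number 1 the percentiles ran from 54.9 for Cdh12 to 91.8 for Cdh9, and the SD of Cdh8 was 0.12 instead of 0.16. Control library 1 was the lowest of the 5 controls at 7 of the 10 genes in CPM and the highest at 0.

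Some members deviated together. Cdh10 and Cdh22, which lie on different chromosomes, had r = 0.962 over the 10 GFP-positive libraries after removing genotype means (permutation p = 9e-05, adjusted 0.00405 over 45 pairs), with a Spearman rank correlation of 0.915 (permutation p = 0.00061, adjusted 0.0274). Without the 2 libraries farthest from the median, r was 0.853. Cdh9 and Cdh10, both on chromosome 15, had r = 0.880 (permutation p = 0.00096, adjusted 0.0216), and 0.869 or 0.931 without 2 libraries, by the values of Cdh9 or Cdh10. Their Spearman rank correlation of 0.733 did not pass after adjustment (permutation p = 0.0201, adjusted 0.226). These were the 2 of 45 pairs that passed by r, and the median r of all pairs was 0.162. The lowest was -0.433, for Cdh8 and Cdh20. Over the 8 libraries without number 1, r was 0.971 for Cdh10 with Cdh22 and 0.878 for Cdh9 with Cdh10. Same-number libraries deviate together, so the 10 points are fewer than 10 independent ones. The permutation shuffled all 10 freely, so its p-values take no account of this and may be too small. Within numbers 1 to 5, the knockout-minus-control differences in log2 CPM were 0.03, 0.02, -0.22, -0.04 and 0.06 for Cdh10 and 0.11, 0.04, -0.16, -0.05 and 0.11 for Cdh22. Both genes thus had their lowest difference in number 3, and with 5 numbers no r is given for these differences.

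Cdh9, Cdh10 and Cdh22 were high in both libraries of number 5 and lowest among controls in library 1. In control and knockout library 5, Cdh10 lay 0.19 and 0.28 above its genotype mean on the log2 scale and Cdh22 0.14 and 0.24 above. In control library 1 the deviations were -0.34 for Cdh9, -0.18 for Cdh10 and -0.14 for Cdh22. Knockout library 1 lay nearer its mean, at -0.05, -0.12 and -0.04 in the same order. The lowest knockout library was number 4 for Cdh9 (-0.11), number 1 for Cdh10 (-0.12) and number 3 for Cdh22 (-0.11). Control library 3 also stood high for Cdh9, by 0.30, and for Cdh7, by 0.33. The ventral interneuron markers summed to 50.2 and 35.7 TPM in control and knockout library 1 and 4.96 and 5.34 TPM in libraries 5, and the dorsal ones to 41.1 and 24.5 TPM against 2.32 and 3.53 TPM. In control libraries 2 to 4 the ventral sums were 16.6, 5.43 and 46.7 TPM. Cdh9 deviated there by -0.07, 0.30 and -0.14, Cdh10 by -0.06, 0.11 and -0.06, and Cdh22 by -0.05, 0.06 and -0.001. In knockout libraries 2 to 4 the ventral sums were 13.9, 7.21 and 26.4 TPM. There Cdh9 lay at 0.01, -0.05 and -0.11, Cdh10 at -0.02, -0.08 and -0.07, and Cdh22 at -0.02, -0.11 and -0.06. The part of these cells in the cadherin deviations was not tested.

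**Figure D3:**
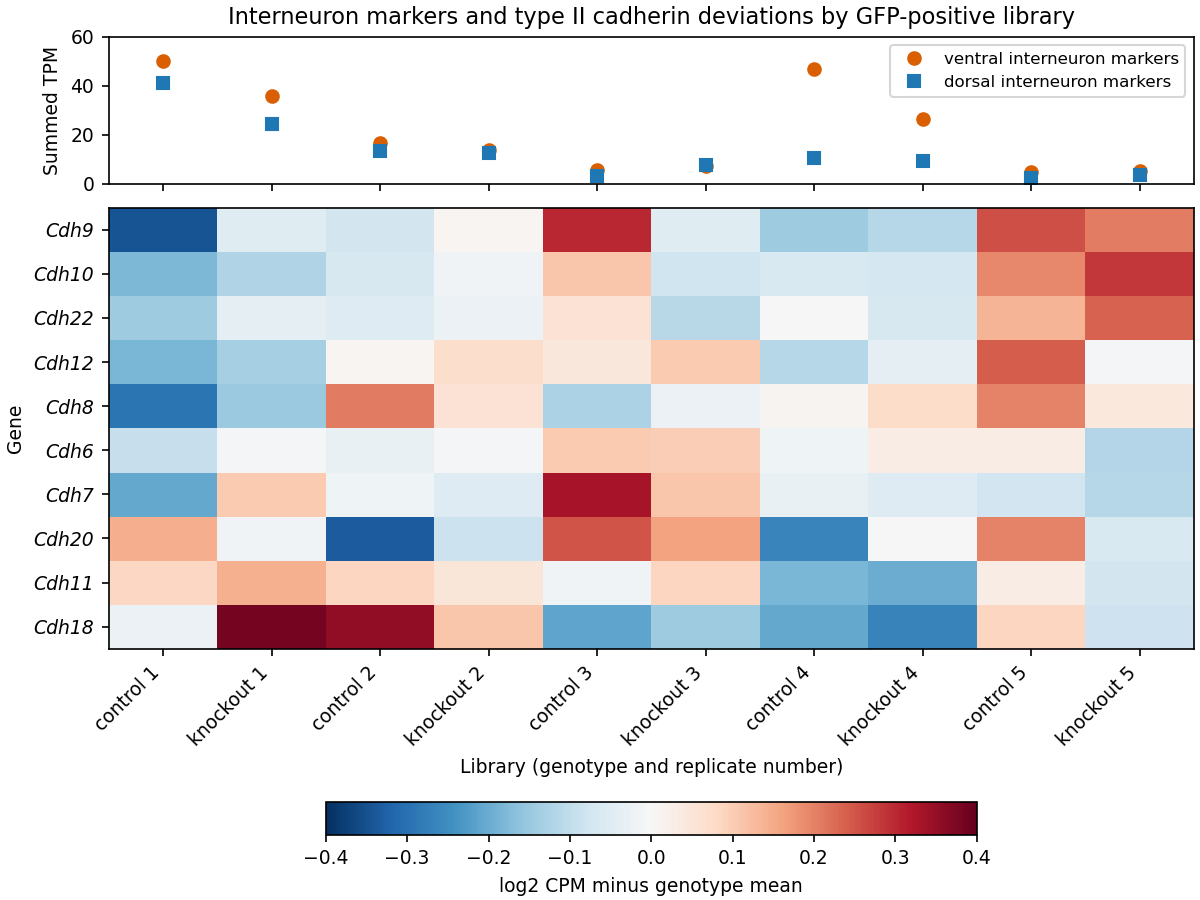
Top, summed TPM of the ventral and dorsal interneuron markers in each GFP-positive library; bottom, log2 CPM of each gene minus its genotype mean, from blue (low) to red (high). Cdh9, Cdh10 and Cdh22 are low in control library 1, where the ventral sum is 50.2 TPM. They are high in both libraries of number 5, where it is 4.96 and 5.34 TPM. The ventral sum is 46.7 TPM in control library 4, where Cdh22 lies at -0.001. In knockout library 3 it is 7.21 TPM, with Cdh22 at -0.11.

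The genes most like the 3 most abundant members were sought over the same 10 libraries among 11865 named genes of at least 1 log2 CPM. For Cdh22 they were Cdh10 (r = 0.962), Dgkz, a diacylglycerol kinase (0.955), and AW146154 (0.950). For Cdh6 they were Slc39a6, a zinc transporter (0.932), Acer3, a ceramidase (0.919), and Zfp626 (0.905). For Cdh8 they were Mpc1, a mitochondrial pyruvate carrier subunit (0.978), Kcna2, a potassium channel (0.966), and Tbc1d24 (0.961). With so many candidates and 10 libraries these are descriptions.

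Of the 6 other classical cadherins tested between the sorts, 0 were called higher in GFP-positive cells, where 30.1% of all genes tested were. Of the remaining type II cadherins, Cdh24, close to Cdh8 in TPM, was lower in GFP-positive cells by a small step (-0.25 on the log2 scale, edgeR adjusted p = 0.01932), at 37.3 ± 3.47 TPM in control GFP-positive and 41.4 TPM in control GFP-negative cells. Cdh5, the endothelial cadherin, was not called (-1.02), and Cdh19 was too low to test. Of the type I cadherins, 4 of 5 were tested, and 0 were higher and 3 lower, against 30.1% and 31.8% of all genes. Cdh2, or N-cadherin, the main cadherin of neural tissue, fell by 0.40 on the log2 scale and yet was the most abundant cadherin of these lists, at 177 ± 15.8 TPM in control GFP-positive and 231 TPM in control GFP-negative libraries. Cdh4, or R-cadherin, stood at -1.02, and Cdh3 at -3.51 from levels under 1 TPM. Outside the classical cadherins, the glycolipid-anchored Cdh13 was higher by 1.32, and Cdh16 was called at 1.51 from levels under 1 TPM.

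The catenins, which link cadherin tails to actin, changed in both directions. Of 8 catenin and linker genes, 3 were higher and 3 lower, where 30.1% of all genes tested were higher and 31.8% lower. These counts thus lie near those of genes at large. Ctnnb1, or beta-catenin, stood at -1.33 on the log2 scale, from 725 TPM in control GFP-negative to 308 ± 32.7 TPM in control GFP-positive cells. Jup, or plakoglobin, which takes the same place on the cadherin tail, was higher by 1.55, from 37.2 to 114 ± 8.80 TPM. Of the alpha-catenins, neural Ctnna2 was higher by 0.77 and the broadly expressed Ctnna1 stood at -1.96. Ctnna3 was not called (-0.33, edgeR adjusted p = 0.4142). The part of the progenitor markers given above in these differences was not tested.

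Nectins, the immunoglobulin adhesion proteins that work beside cadherins, also moved both ways. Of 5 genes with afadin (Mllt4), 2 were higher and 2 lower, again near the shares of all genes (30.1% and 31.8%). Pvrl4 was higher by 1.31 and Pvrl2 by 0.19 on the log2 scale, and Pvrl1 stood at -0.85 and Pvrl3 at -0.76. Among genes of cadherin processing and turnover, the sheddase Adam10 (-0.39) and the ubiquitin ligase Cbll1 (-0.16) were lower, and the protease Furin was not called. Of 15 motor pool and column factors, 13 were higher and 2 lower in GFP-positive cells (30.1% and 31.8% of all genes). The higher ones were led by p with Mnx1 (9.04), whose promoter drives the sorted reporter, Isl2 (8.43), Nkx6-1 (2.22) and Isl1 (3.56). The 2 lower were Etv5 (-2.69) and Lhx1 (-2.52).

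Between knockout and control, 0 genes were called in any of these lists. The smallest unadjusted p among the adhesion lists was that of Cdh24, at -0.14 on the log2 scale (edgeR unadjusted p = 0.0653, adjusted p = 0.9999). Vcl, or vinculin, was at 0.11 (edgeR unadjusted p = 0.0707), Cdh4 at -0.10, Pvrl2 at 0.09, Furin at -0.04, Cdh17 at -0.20 and Nkx6-1 at 0.11.

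**Figure D4:**
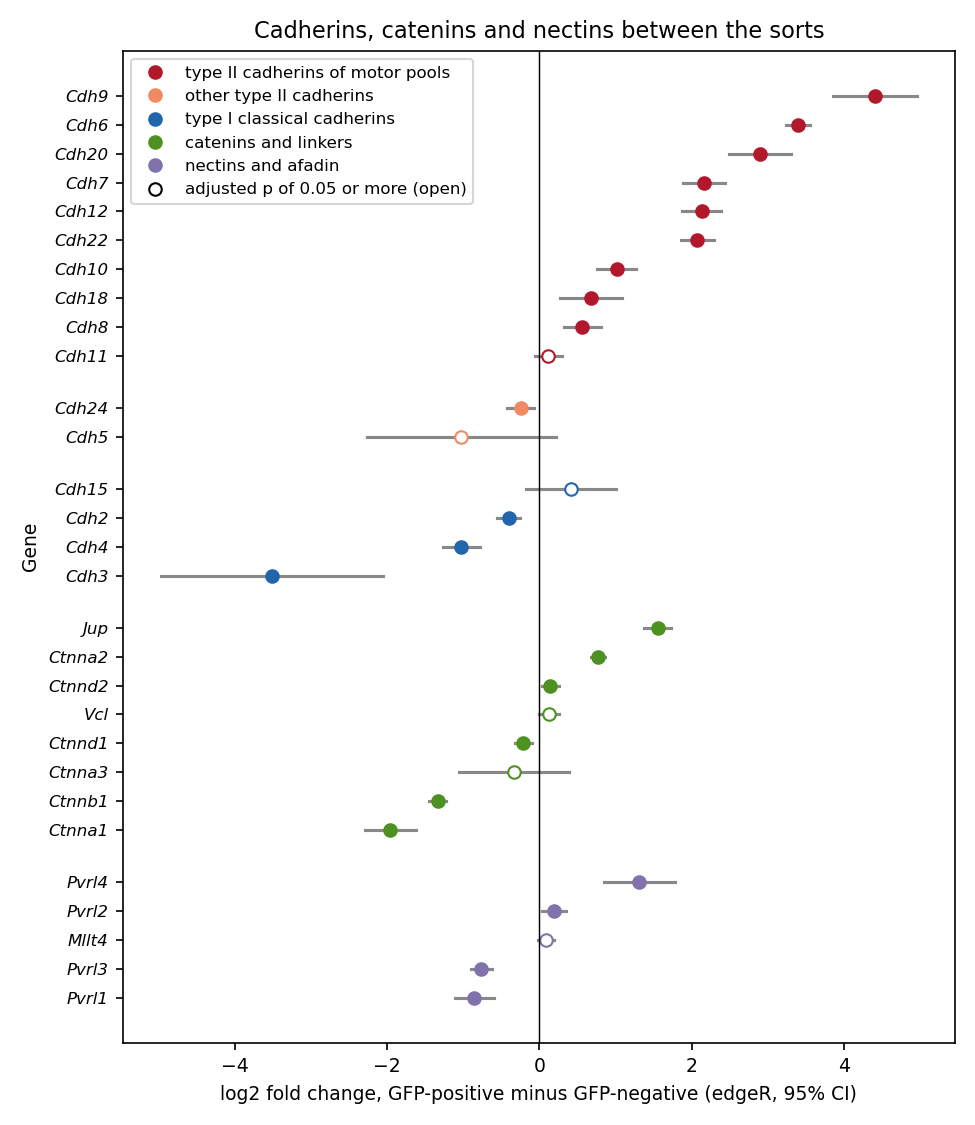
Log2 fold change between GFP-positive and GFP-negative cells with its 95% interval (edgeR) for the tested genes of 5 adhesion lists; open points have an adjusted p of 0.05 or more. The 10 cadherins of motor pools run from 0.12 (Cdh11) to 4.41 (Cdh9), and the type I cadherins from -3.51 (Cdh3) to 0.42 (Cdh15).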

How the data were processed

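Of the tables the authors deposited, one holds estimated counts by gene symbol without normalization, 39.2% of them exactly whole, and the other TPM. The submitters' processing notes name kallisto, with no version, and mm10 (the step from transcripts to symbols: not given in the sources used here). Deposited TPM columns sum to between 974800 and 1018241, so they were rescaled, by a step the labels do not describe. Libraries were read as 50-base single ends from polyA RNA with a kit that keeps no strand, per the labels' protocols.

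In R 4.3.3, edgeR 4.0.16 took the rounded estimated counts, with its filterByExpr filter, TMM scaling and robust quasi-likelihood test. P-values were adjusted over the whole set of tested genes, and 0.05 was the limit for a call. CPM used the TMM-scaled totals, and log2 CPM a prior count of 2. TPM served for levels between genes. A floor of 3 counts is 0.0898 to 0.128 CPM by library, for counting error only. Fits were tested on simulated data. All 12 columns of each table were matched to samples.

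Numbers pair the libraries: same-number residuals correlated at 0.381, 0.251, 0.179, 0.276 and 0.310 for numbers 1 to 5. Control and knockout libraries of different numbers correlated at 0.103 at most, a maximum that leaves out pairs within a genotype. The pairing is seen in the data, and the labels do not say what a number shares. Alternatives were the replicate block, DESeq2 1.42.0, other scaling and filters, limma 3.58.1 on log2(TPM + 1), the libraries of number 1 alone, and each library left out. After seeing the data, leaving out both GFP-positive libraries of number 1 was added, for calls, spread and correlations.

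Members and lists were chosen with earlier results of these data known. Named beside the members were, per list, up to 4 called genes of smallest p between the sorts (or 2 where none was called) and the gene of smallest p between the genotypes, and for the 3 most abundant members the 3 genes with the highest r. Cdh5, Cdh15, Cdh19, Ctnna3, Etv5, Lhx1, Grlf1, Mllt4 and Gm49127 fall outside this rule. Marker lists covered motor neurons, progenitors, ventral and dorsal interneurons, mesenchyme, endothelium, neural crest and Schwann cells, sensory neurons, erythroid cells and microglia. A gene that the rule names in the list of cadherin processing and turnover is not reported here.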

Additional observations from a re-analysis of the deposited data

Results flagged for a closer look

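In the 20 groups of 5 libraries tested (10 genes in each genotype of GFP-positive cells), 2 held a library far from the others, and chance alone flags about 1 in 20 groups. Both were knockout library 5. Cdh10 read 32.65 CPM there, against 24.66 to 26.52 CPM in the other 4 knockout libraries, and the gap to the nearest took 0.767 of the range. Cdh22 read 81.12 CPM there, against 63.76 to 67.73 CPM, a gap of 0.771 of the range. Control library 5, at 31.23 CPM for Cdh10 and 75.16 CPM for Cdh22, was also the highest of its group for both genes. Without knockout library 5, the knockout difference was -0.11 for Cdh10 and -0.06 for Cdh22 on the log2 scale, and neither was called. The 2 genes deviate together across libraries, so these are not separate observations.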

How the results depend on the processing

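Members called stayed at 0 between the genotypes and at 0 for the difference between the sorts under every alternative run. Between the sorts the count ran from 8 to 10 of 10: it was 10 with the replicate block and with the 4 libraries of number 1, 8 without the knockout GFP-negative library, and 9 otherwise. Over all genes, the knockout count was 6. With the replicate block it was 5, of which 3 were among those 6. By DESeq2 it was 11, and without both libraries of number 1 it was 0. Leaving out 1 library gave 0 to 8. The count was 2 or fewer when control library 2, 3 or 4 or any knockout library was left out. The count for the difference between the sorts was 5, 1 with the replicate block, 2 by DESeq2 and 0 to 6 with 1 library left out. The replicate block changed no other call of a member. Between the genotypes, signs turned for Cdh9 (-0.0418 to 0.120 on the log2 scale with 1 library left out, -0.0281 without both libraries of number 1), Cdh22 (-0.0589 to 0.0427, and -0.0186) and Cdh10 (-0.108 to 0.0236). For the difference between the sorts they turned for Cdh6 (-0.0311 to 0.0231, and 0.0001 by DESeq2 and by DESeq2 size factors), Cdh7 (-0.0953 to 0.0489) and Cdh12 (-0.0462 to 0.0668). Without length scaling, the places by the mean of all 10 GFP-positive libraries were 3 for Cdh11, 4 for Cdh8, 6 for Cdh9, 7 for Cdh10, 8 for Cdh12 and 9 for Cdh20. Cdh9 and Cdh10 are at 27.20 and 27.19 CPM there, and in control libraries alone Cdh10 stays above Cdh9. The cause of these shifts was not tested. By construction, CPM does not divide by length, and fewer libraries enter a fit with 1 left out. Depth limits Cdh9 in GFP-negative cells most, at 47.8 and 25.0 estimated counts.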
